A study of Mus musculus with 12 samples.

Results

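Inhibitory receptors of macrophages were followed at the RNA level in RAW 264.7 cells, a macrophage line of BALB/c mice. The set comprised the receptors Pirb, Lair1, Lilrb4a, Sirpa, Cd300a, Cd300lf, Clec12a and Cd33 and the phosphatase Ptpn6. Members were chosen as ITIM-type receptors and their phosphatase with results of these 4 groups already known, and their rows were found by gene name, so their levels and changes are given as a description. Of the 9 genes listed, 8 had a row in the count table of 39179 genes, and all 8 passed the filter on low counts, as did 13121 genes in all. Lilrb4a had no row under its name or identifier and is not analysed here.

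The samples fell into 4 groups of 3 libraries. Cells labelled sh-PHLPP1 carried, by nucleofection, an shRNA (a short hairpin RNA) to Phlpp1 and were harvested after 24 h with 100 µg/ml oxidised low-density lipoprotein (OxLDL) or without treatment. Cells labelled sh-Luc carried a control hairpin against luciferase and were given the same OxLDL dose or none. Both hairpins were kept under puromycin as 1 stable line each, and replicates 1, 2 and 3 of every group are passages 9, 10 and 11 of those cultures. Spread between replicates is therefore spread between passages of a line, not between independently made lines. Adjusted p-values below measure that spread only, and line and hairpin cannot be told apart.

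Inhibitory receptors of this kind carry a short tyrosine motif in their cytosolic tail, the immunoreceptor tyrosine-based inhibitory motif (ITIM). When Src-family kinases phosphorylate that tyrosine, the tail recruits the tyrosine phosphatases SHP-1 (encoded by Ptpn6) and SHP-2 (Ptpn11) or the lipid phosphatase SHIP-1 (Inpp5d). These enzymes counter activating receptors, which signal through adaptors such as DAP12 (Tyrobp) and kinases such as Syk. In macrophages the pathway is known for restraining phagocytosis, as with Sirpa and its ligand Cd47, and for limiting responses to inflammatory stimuli.

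Coding stretches of the motif are shown because the motif groups these receptors. The consensus searched was isoleucine, valine, leucine or serine, then any residue, tyrosine, a pair of free positions, and isoleucine, leucine or valine. It was searched in the principal coding sequence of each gene (GENCODE M21, GRCm38), and the cytosolic side was taken from the most hydrophobic window of 19 residues. Each line gives 18 bases in the coding direction, with the tyrosine codon in capitals.
Pirb, tyrosine 794 of 841 residues, chr7:3712786-3712803, minus strand: gtgaccTATgcccagctg
Pirb, tyrosine 824, chr7:3712696-3712713, minus strand: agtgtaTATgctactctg
Lair1, tyrosine 228 of 263, chr7:4009790-4009807, minus strand: gtgacgTATatccagctg
Lair1, tyrosine 257, chr7:4009703-4009720, minus strand: agcacaTATgcagccatc
Cd300lf, tyrosine 282 of 330, chr11:115117112-115117129, minus strand: gtttcaTATgccgctctg
Cd300a, tyrosine 262 of 318, chr11:114899846-114899863, plus strand: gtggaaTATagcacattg
Clec12a, tyrosine 7 of 267, chr6:129350433-129350450, plus strand: attgttTATgcaaatctc
Sirpa, tyrosine 436 of 509, chr2:129629954-129629971, plus strand: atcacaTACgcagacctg

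Matches on the cytosolic side numbered 3 in Pirb and in Sirpa, 2 in Lair1, Cd300a and Cd300lf, and 1 in Clec12a. The Clec12a tail lies before its hydrophobic window, at the amino end, and the tails of the others lie after it. Mouse Cd33 had 0 matches on the cytosolic side and 1 elsewhere in its 334 residues. The pattern is common, since 48.9% of 21554 coding sequences held it somewhere, so a match alone does not mark an inhibitory receptor.

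Promoters are shown for the receptors whose levels differed most between groups, as 250 bases before to 50 after the annotated start (RefSeq, GRCm38.p6). Capitals mark matches on either strand to the PU.1 core GAGGAA (reverse TTCCTC) or the C/EBP pattern TTGCNNAA.
Pirb, chr7:3720333-3720632, minus strand: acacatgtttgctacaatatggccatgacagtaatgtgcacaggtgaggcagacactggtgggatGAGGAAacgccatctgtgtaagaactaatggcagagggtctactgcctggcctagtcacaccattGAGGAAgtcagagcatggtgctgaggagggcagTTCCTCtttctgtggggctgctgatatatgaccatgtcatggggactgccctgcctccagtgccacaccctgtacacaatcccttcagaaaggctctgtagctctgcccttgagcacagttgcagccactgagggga
Lair1, chr7:4063155-4063454, minus strand: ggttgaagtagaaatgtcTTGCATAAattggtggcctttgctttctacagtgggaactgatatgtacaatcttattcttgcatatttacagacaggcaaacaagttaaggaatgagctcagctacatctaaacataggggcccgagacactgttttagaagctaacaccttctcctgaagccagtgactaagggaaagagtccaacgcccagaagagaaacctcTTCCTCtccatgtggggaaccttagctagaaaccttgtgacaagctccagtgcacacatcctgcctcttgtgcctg
Cd300lf, chr11:115133943-115134242, minus strand: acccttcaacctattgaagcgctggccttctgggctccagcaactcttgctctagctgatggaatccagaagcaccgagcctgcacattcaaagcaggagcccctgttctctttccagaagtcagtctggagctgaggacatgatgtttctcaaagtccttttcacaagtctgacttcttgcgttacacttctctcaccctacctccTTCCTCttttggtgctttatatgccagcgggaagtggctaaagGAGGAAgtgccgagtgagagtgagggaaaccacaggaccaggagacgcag

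The PU.1 core, the binding core of a transcription factor of myeloid cells, matched 3 times in the Pirb window, 1 time in that of Lair1 and 2 times in that of Cd300lf. Of 32851 mouse promoter windows of this length, 28.3% held it and 10.8% held the C/EBP pattern. AP-1 (TGANTCA, in 7.81% of windows) had no match in these 3 windows. RefSeq windows were found for 7 of the 9 genes, and 6 of them held the PU.1 core, with none in the window of Ptpn6. These matches describe letters and say nothing of binding.

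Libraries held 16020186 to 27422114 counts. Levels are given as CPM, counts scaled to a common library size with edgeR's TMM factors. A gene at 0 could have had up to 3 counts, or 0.0999 to 0.222 CPM, and limits of this kind cover counting error only. In 3 of the 4 groups 1 library correlated less with its partners than they did with each other. Replicate 1 of untreated sh-PHLPP1 had correlations across genes of 0.967 and 0.966 with its partners, and these reached 0.995 between themselves. Replicate 2 of untreated sh-Luc had correlations of 0.983 and 0.984, beside 0.994 between its partners. Replicate 3 of sh-PHLPP1 with OxLDL had 0.984 and 0.987, beside 0.993 between its partners, and it was left out only singly. The libraries that stand apart, below, are the 2 untreated ones.

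Phlpp1, the gene the hairpin targets, did not separate the untreated lines. Untreated cells labelled sh-PHLPP1 had 17.3, 14.6 and 14.0 CPM, beside 12.4, 14.4 and 13.3 CPM in untreated sh-Luc libraries (log2 fold change 0.19 ± 0.13, SE). After OxLDL, cells labelled sh-PHLPP1 had less, with 8.65, 8.35 and 7.40 CPM, beside 11.4, 13.5 and 11.4 CPM in sh-Luc (-0.57 ± 0.14, adjusted p = 0.00385, edgeR). The groups below are accordingly called by their labels, and every direction between lines rests on those labels.

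Macrophage markers were present: 7 of 8 passed the filter, and Mertk reached at most 1 count. Their summed level ran from 12200 to 13400 CPM in sh-PHLPP1 cells with OxLDL, from 9640 to 11100 CPM in untreated sh-PHLPP1 cells, from 16100 to 17500 CPM in sh-Luc cells with OxLDL and from 13900 to 15500 CPM in untreated sh-Luc cells. Lyz2 was the largest part of the sum, at 6920 to 14100 CPM over the 12 libraries. Csf1r ran from 456 to 3140 CPM, Itgam from 192 to 1190, Adgre1 from 88.8 to 357 and Cd68 from 469 to 1680. Spi1 ran from 381 to 741 CPM and Ptprc from 173 to 307. The part of these differences in the receptor levels was not tested. Markers of B cells, T and NK cells, neutrophils and mast cells, and epithelium summed to at most 0.444, 0.0804, 0.176 and 0.0421 CPM, and Ms4a1, Pax5, Cd3e, Cd3g and Epcam were at 0. The 4 fibroblast markers summed to 2.37 to 4.29 CPM in sh-PHLPP1 cells with OxLDL, 0.999 to 1.59 untreated, and to 1.19 to 2.68 CPM in sh-Luc cells with OxLDL and 0.931 to 2.49 untreated. The 3 endothelial markers summed, in the same order of groups, to 2.31 to 2.52, 1.51 to 2.34, 5.36 to 8.03 and 3.62 to 7.16 CPM, mostly from Kdr, and their part in the results was not tested. In bulk RNA, fewer expressing cells and less RNA per cell cannot be told apart.

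Per kilobase of exon, Sirpa and Ptpn6 were the most abundant of the 8 genes, with group means of 91.1 to 117 CPM per kb for Sirpa and 85.1 to 116 CPM per kb for Ptpn6. Cd300a followed at 17.0 to 30.2 CPM per kb and Clec12a at 5.66 to 17.5 CPM per kb. The lowest group mean was 1.27 CPM per kb for Cd300lf, 0.380 for Pirb, 0.144 for Lair1 and 0.184 for Cd33, and the highest was 10.5, 1.81, 3.44 and 0.699 CPM per kb in the same order. The receptors with the widest changes were thus the less abundant ones.

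Pirb (ENSMUSG00000058818, chromosome 7, 3711409 to 3720391), which binds MHC class I and, in mouse, Angptl2 and Nogo proteins, changed with OxLDL in opposite directions in the lines. In sh-PHLPP1 cells it stood at 1.76, 1.42 and 1.92 CPM with OxLDL and at 3.99, 9.95 and 10.4 CPM untreated. In sh-Luc cells it stood at 5.09, 5.63 and 5.92 CPM with OxLDL and at 2.35, 2.78 and 2.49 CPM untreated. The groups did not overlap in any of the 4 pairwise comparisons, as held for 59.9% of all genes with OxLDL in sh-PHLPP1, 43.2% in sh-Luc, 69.2% between the lines after OxLDL and 36.9% untreated. The line with more Pirb before treatment had less after it. In order of mean, untreated sh-PHLPP1 came first at 8.11 ± 3.58 CPM (SD, n = 3), then sh-Luc with OxLDL at 5.55 ± 0.418, untreated sh-Luc at 2.54 ± 0.217 and sh-PHLPP1 with OxLDL at 1.70 ± 0.256. Only the first and second in this order overlapped, through replicate 1 of untreated sh-PHLPP1.

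The log2 fold change of Pirb with OxLDL was -2.26 ± 0.32 (SE) in the line labelled sh-PHLPP1 and 1.12 ± 0.30 in sh-Luc. The difference between these responses, the interaction, was -3.39 ± 0.44. Between the lines, Pirb differed by -1.71 ± 0.33 after OxLDL and by 1.68 ± 0.30 without treatment. Each of these values was called at an adjusted p under 0.05 over all genes tested, the rule for every call below. The OxLDL call in sh-Luc was lost when any of its 6 libraries was left out, with values of 1.08 to 1.20. The interaction of Pirb was -3.79 ± 0.23 without both libraries that stand apart.

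Pirb has close activating relatives in its gene cluster, so its counts, 24 to 299 a library, are less certain than those of a single-copy gene. Lilra6, an activating relative with 2 to 40 counts a library, had 0.270, 0.178 and 0.148 CPM with OxLDL and 0.275, 1.33 and 1.43 CPM untreated in sh-PHLPP1 cells. The sh-Luc cells had 0.966, 0.699 and 0.997 CPM with OxLDL and 0.222, 0.483 and 0.506 CPM untreated. Its order of groups was that of Pirb, at about the level of a few reads. The interaction was -3.44 ± 0.82 (adjusted p = 0.0114, edgeR), and how far reads were shared with Pirb was not tested. Pira2, another relative, had 1 to 15 counts and was not tested.

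Lair1 (ENSMUSG00000055541, chromosome 7, 4003402 to 4063204), an inhibitory receptor for collagens, separated the lines whatever the treatment. It stood at 1.08, 0.888 and 1.26 CPM in sh-PHLPP1 cells with OxLDL, against 25.3, 25.1 and 26.8 CPM in sh-Luc cells with OxLDL. Without treatment it stood at 1.74, 0.999 and 0.832 CPM in sh-PHLPP1 cells and 17.2, 26.1 and 16.6 CPM in sh-Luc cells. No library of one line came near the other line, and the sh-PHLPP1 libraries still held 15 to 38 counts. Lair1 was 24.0-fold lower in the line labelled sh-PHLPP1 after OxLDL (log2 fold change -4.58 ± 0.28) and 17.0-fold lower without treatment (-4.08 ± 0.26).

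With OxLDL, the log2 fold change of Lair1 was -0.13 ± 0.32 in sh-PHLPP1 cells and 0.36 ± 0.21 in sh-Luc cells, with intervals of -0.84 to 0.57 and -0.09 to 0.82, and neither was called. Untreated sh-Luc replicate 2, one of the libraries that stand apart, was as high as the OxLDL libraries of its line. With both such libraries left out, the value in sh-Luc was 0.61 ± 0.11 and was called, and that in sh-PHLPP1 was 0.20 ± 0.24. The interaction of -0.50 ± 0.39 was not called.

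**Figure D1:**
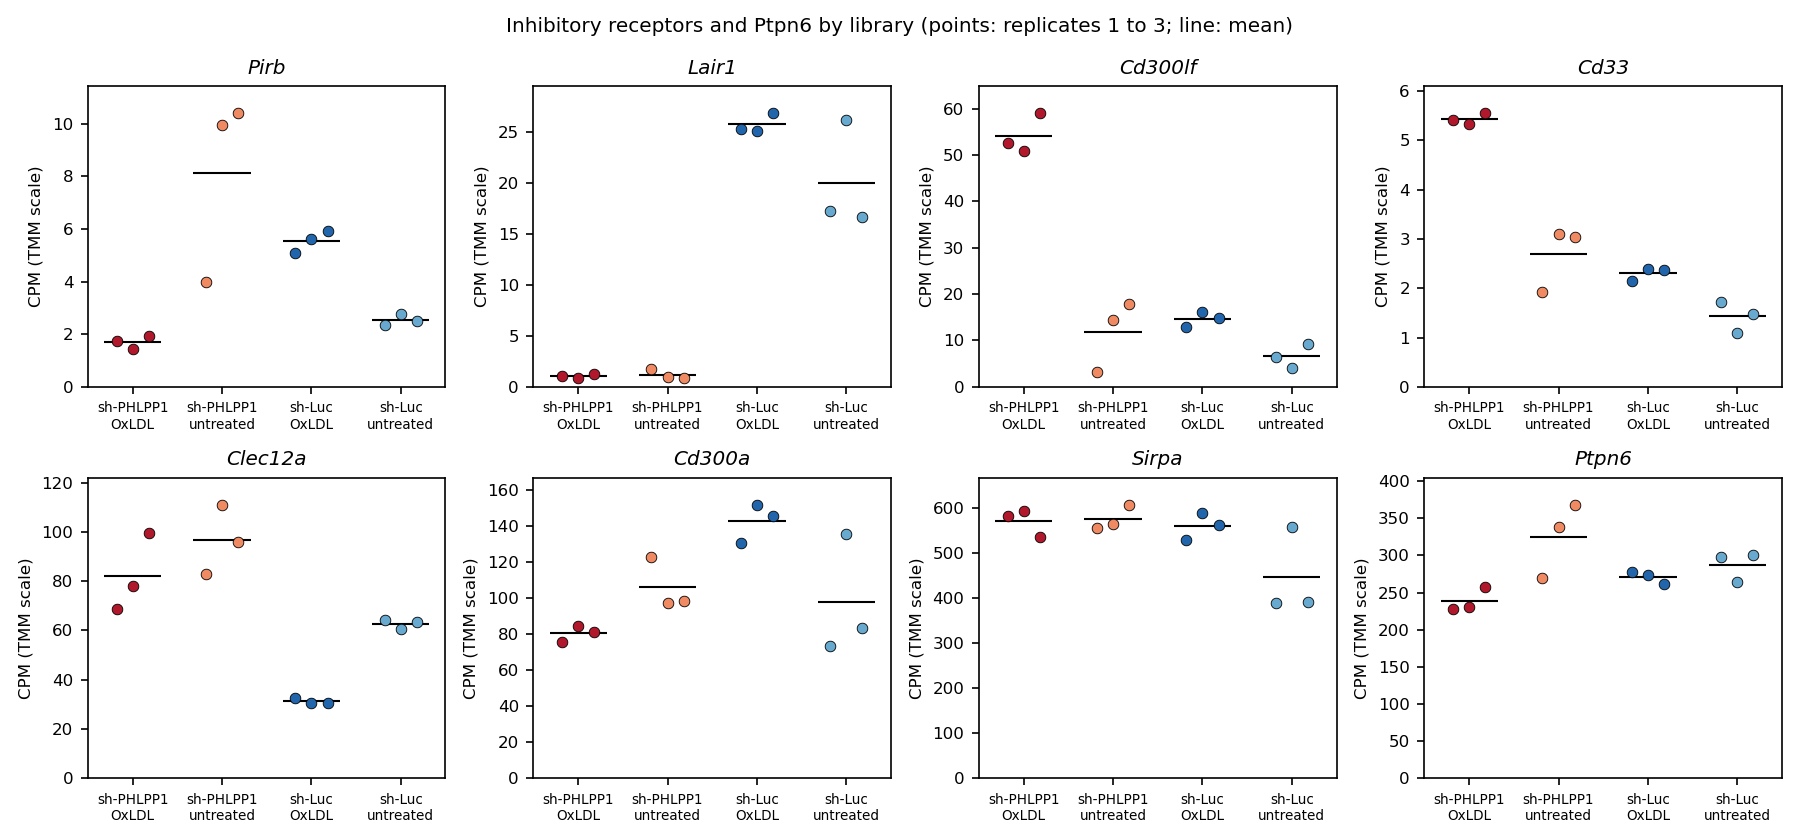
CPM (TMM scale, linear axes from 0) of the 7 receptors and Ptpn6 in each of the 12 libraries, with groups on the x axis; points are replicates 1 to 3 and lines are group means. Lair1 lies near 1 CPM in all 6 sh-PHLPP1 libraries and between 16.6 and 26.8 CPM in all 6 sh-Luc libraries, while Pirb is lowest in sh-PHLPP1 cells with OxLDL.

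Cd300lf and Cd33 were highest in sh-PHLPP1 cells with OxLDL. Cd300lf (ENSMUSG00000047798, chromosome 11, 115116214 to 115133992), which binds phosphatidylserine and other lipids, reached 52.5, 50.9 and 59.0 CPM in sh-PHLPP1 cells with OxLDL and 3.12, 14.5 and 17.8 CPM in untreated ones. In sh-Luc cells it reached 12.9, 16.1 and 14.8 CPM with OxLDL and 6.43, 4.06 and 9.15 CPM untreated. The treated sh-PHLPP1 libraries stood above the other 9, and within sh-Luc the treated libraries stood above the untreated ones. Untreated sh-PHLPP1 libraries overlapped both sh-Luc groups. The log2 fold change with OxLDL was 2.19 ± 0.45 in sh-PHLPP1, a call, and 1.16 ± 0.45 in sh-Luc, not called.

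Between the lines, Cd300lf differed by 1.89 ± 0.44 after OxLDL, a call, and by 0.86 ± 0.45 without treatment, not called. Replicate 1 of untreated sh-PHLPP1 was the lowest of all libraries for this gene, and without it the untreated difference was 1.30 and was called. Leaving out both libraries that stand apart gave OxLDL values of 1.74 ± 0.15 in sh-PHLPP1 and 0.91 ± 0.16 in sh-Luc, both called, and an untreated difference of 1.04, also called. The interaction was then 0.83 ± 0.21 and called, against 1.03 ± 0.63 and not called with all libraries.

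Cd33 (ENSMUSG00000004609, chromosome 7, 43524216 to 43544428), a lectin that binds sialic acid, had 27 to 93 counts a library. It had 5.41, 5.33 and 5.55 CPM in sh-PHLPP1 cells with OxLDL and 1.92, 3.10 and 3.05 CPM in untreated ones. Cd33 in sh-Luc cells had 2.15, 2.39 and 2.37 CPM with OxLDL and 1.73, 1.09 and 1.48 CPM untreated. The treated sh-PHLPP1 libraries were again above the other 9. Cd33 rose with OxLDL in sh-PHLPP1 (log2 fold change 1.00 ± 0.22), and its value in sh-Luc of 0.69 ± 0.23 was not called. The difference between these responses, 0.32 ± 0.32, was not called either.

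Between the lines, Cd33 was higher in sh-PHLPP1 after OxLDL (1.24 ± 0.22) and without treatment (0.92 ± 0.23). Leaving out untreated sh-Luc replicate 2 (0.75) or untreated sh-PHLPP1 replicate 2 (0.80) or 3 (0.83) ended the untreated call, as did a fit of only the 6 libraries compared (0.91). Over the 12 libraries, log2 CPM of Cd33 correlated with that of Cd300lf at 0.919, the highest of the 28 pairs of these genes. These points share libraries and depth, and the correlation is a description.

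Clec12a (ENSMUSG00000053063, chromosome 6, 129342691 to 129365303), a lectin receptor for uric acid crystals, fell with OxLDL in sh-Luc cells. It had 68.9, 78.1 and 99.4 CPM with OxLDL and 82.9, 111 and 96.1 CPM untreated in sh-PHLPP1 cells. Clec12a in sh-Luc cells had 32.7, 30.4 and 30.7 CPM with OxLDL and 64.2, 60.7 and 63.5 CPM untreated. The groups overlapped in sh-PHLPP1 and lay far apart in sh-Luc. The log2 fold change with OxLDL was -0.23 ± 0.14 in sh-PHLPP1, not called, and -1.01 ± 0.14 in sh-Luc, a call.

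The difference between these responses of Clec12a was 0.77 ± 0.20 and was called, a call that scaling by library size alone ended (0.38). In sh-PHLPP1 the OxLDL value became a call without untreated replicate 1 (-0.34) or OxLDL replicate 3 (-0.40), without both libraries that stand apart (-0.34) and with library size alone (-0.67). Clec12a was higher in the line labelled sh-PHLPP1 than in sh-Luc after OxLDL (1.39 ± 0.14) and without treatment (0.62 ± 0.14). Its correlation with Lair1 over the 12 libraries was -0.818, the lowest of the 28 pairs.

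Cd300a (ENSMUSG00000034652, chromosome 11, 114890041 to 114904654), a receptor for phosphatidylserine and phosphatidylethanolamine, differed between the lines after OxLDL. It had 75.6, 84.8 and 81.4 CPM in sh-PHLPP1 cells with OxLDL and 131, 152 and 146 CPM in sh-Luc cells with OxLDL (log2 fold change -0.83 ± 0.19, a call). Untreated, it had 123, 97.4 and 98.5 CPM in sh-PHLPP1 cells and 73.5, 136 and 83.7 CPM in sh-Luc cells (0.12 ± 0.19, not called). The untreated groups overlapped, and replicate 2 of sh-Luc was the highest of those 6 libraries.

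The OxLDL values of Cd300a were -0.40 ± 0.19 in sh-PHLPP1 and 0.55 ± 0.19 in sh-Luc, neither a call, while their difference of -0.95 ± 0.27 was called. Leaving out any of 5 libraries ended that call: untreated sh-Luc replicate 3 (-0.86), replicate 2 (-0.90) or 3 (-0.95) of sh-Luc with OxLDL, and replicate 1 (-0.90) or 3 (-0.96) of sh-PHLPP1 with OxLDL. Without untreated sh-Luc replicate 2, the sh-Luc value was 0.87 and the untreated difference between lines 0.43, both called. The untreated difference was -0.05 without untreated sh-Luc replicate 1 and 0.00 without untreated sh-PHLPP1 replicate 1. The value in sh-PHLPP1 was called with both libraries that stand apart left out (-0.29), with library size alone (-0.83) and with no filter (-0.46). The interaction of Cd300a was -1.16 ± 0.14 with both libraries left out, and the untreated difference was 0.31 and called.

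Sirpa (ENSMUSG00000037902, chromosome 2, 129592835 to 129632228), the receptor for Cd47, was not called in any comparison. It had 584, 595 and 537 CPM with OxLDL and 557, 565 and 608 CPM untreated in sh-PHLPP1 cells. Sirpa in sh-Luc cells had 530, 590 and 564 CPM with OxLDL and 390, 559 and 393 CPM untreated. Untreated sh-Luc replicates 1 and 3 were the lowest libraries and the others overlapped. The log2 fold change with OxLDL was -0.01 ± 0.14 in sh-PHLPP1, with an interval of -0.31 to 0.29, and 0.33 ± 0.14 in sh-Luc. Between the lines it was 0.03 ± 0.14 after OxLDL and 0.37 ± 0.14 untreated. Without untreated sh-Luc replicate 2, the values in sh-Luc (0.52) and between untreated lines (0.55) were called, as was the interaction (-0.54). Without untreated sh-PHLPP1 replicate 1 the untreated difference of 0.39 was called. With both of these libraries left out, all 3 values were called (0.52 in sh-Luc, 0.58 untreated and -0.57 in the interaction). Library size alone called the value in sh-PHLPP1 (-0.44), the untreated difference (0.49) and the interaction (-0.73).

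Ptpn6 (ENSMUSG00000004266, chromosome 6, 124720707 to 124738714), which encodes SHP-1, fell with OxLDL in sh-PHLPP1 cells (log2 fold change -0.45 ± 0.12). It had 228, 230 and 258 CPM with OxLDL and 270, 338 and 368 CPM untreated in sh-PHLPP1 cells. Ptpn6 in sh-Luc cells had 277, 274 and 261 CPM with OxLDL and 298, 264 and 301 CPM untreated (-0.09 ± 0.12, not called). Between the lines it was -0.18 ± 0.12 after OxLDL and 0.18 ± 0.12 untreated, and the interaction was -0.36 ± 0.17, none of them a call. Without untreated sh-PHLPP1 replicate 1, the untreated difference (0.29) and the interaction (-0.49) were called. With both libraries that stand apart left out, the difference after OxLDL (-0.20) and the interaction (-0.43) were called and the untreated difference (0.23) was not. Scaling by library size alone called the difference after OxLDL (-0.45) and the interaction (-0.74). Ptpn6 correlated with Pirb at 0.753 over the 12 libraries.

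**Figure D2:**
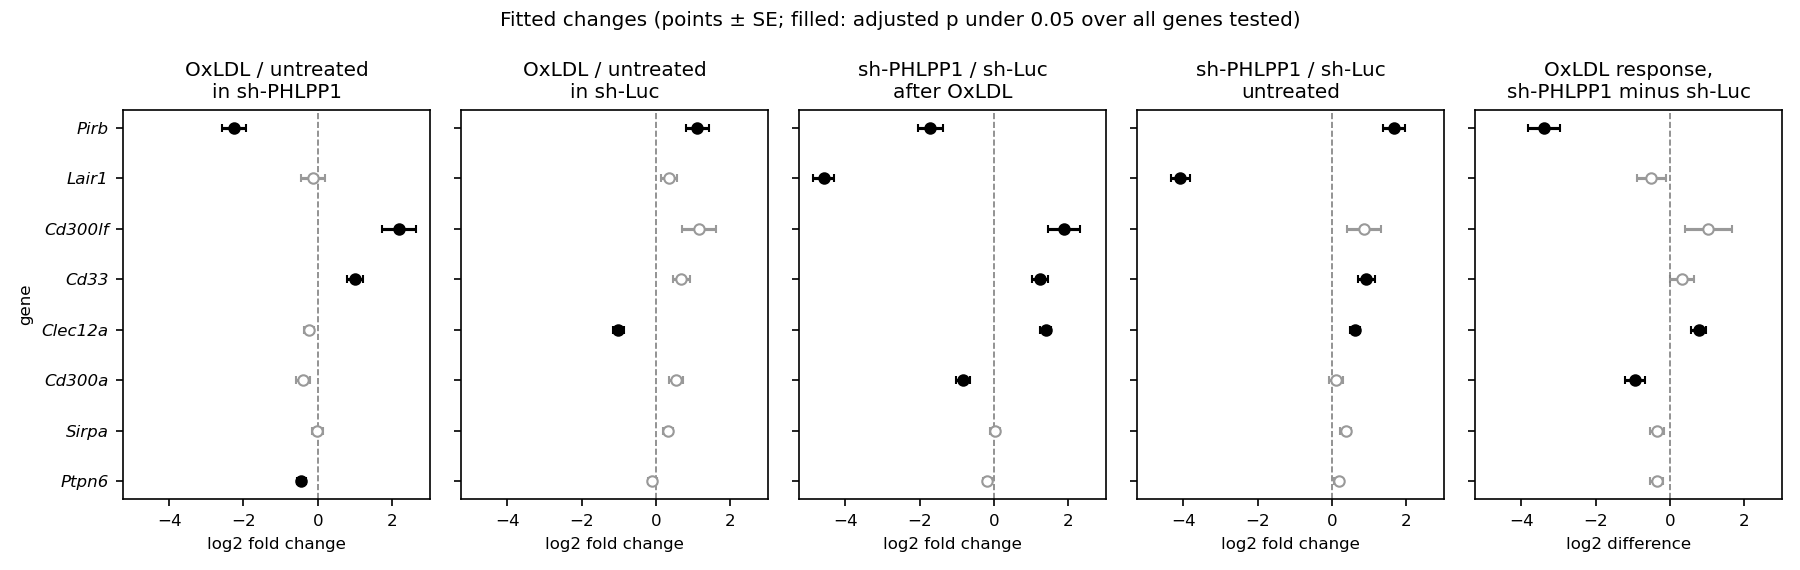
Fitted log2 fold change, or for the right panel the log2 difference between responses, with bars of 1 SE, for the 7 receptors and Ptpn6 in each comparison; filled points were called and open points were not. Pirb lies on opposite sides of 0 for OxLDL in sh-PHLPP1 (-2.26) and in sh-Luc (1.12), and Lair1 lies at -4.58 and -4.08 between the lines.

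Counted together, 4 of the 8 genes were called with OxLDL in sh-PHLPP1, where 54.6% of all genes tested were called, 26.2% higher and 28.4% lower. Cd300lf and Cd33 were higher and Pirb and Ptpn6 lower. In sh-Luc, Pirb was higher and Clec12a lower with OxLDL, 2 of 8 genes beside 9.47% of all genes, 6.38% higher and 3.09% lower. Between the lines after OxLDL, 6 of 8 were called, with Cd300lf, Cd33 and Clec12a higher in sh-PHLPP1 and Pirb, Lair1 and Cd300a lower, beside 55.2% of all genes, 27.6% in each direction. Untreated, 4 of 8 were called, with Pirb, Cd33 and Clec12a higher and Lair1 lower, beside 27% of all genes, 14.9% higher and 12.2% lower. The interaction was called for 3 of 8 genes, higher for Clec12a and lower for Pirb and Cd300a, beside 24.6% of all genes, 11.1% higher and 13.6% lower.

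Nothing is read from these counts, since the genes were chosen on the same comparisons. Their median log2 fold changes were -0.18 and 0.46 for OxLDL in sh-PHLPP1 and sh-Luc, and -0.07 and 0.50 between the lines after OxLDL and untreated, beside medians of -0.03, 0.00, 0.01 and 0.03 over all genes. Without both libraries that stand apart, 6 of 8 were called with OxLDL in sh-PHLPP1, 6 in sh-Luc, 7 between the lines after OxLDL, 7 untreated and 6 in the interaction. That fit also called more of all genes, with 8297, 3528, 8851, 6267 and 5319 in the same order. With all libraries these numbers were 7169, 1242, 7240, 3549 and 3231. Without untreated sh-PHLPP1 replicate 1 alone, 7 were called between the untreated lines, as were 6372 of all genes. The sh-Luc count of 2 was 1 without any single library of its 6 other than untreated sh-Luc replicate 2. Those fits called 564 to 698 genes in all. Comparisons that share a group of libraries are not independent of each other.

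In the authors' deposited table for OxLDL in sh-Luc, 3 of these genes were called higher and 1 lower, Cd300a (log2 fold change 0.55) and Cd300lf (1.16) being higher there beside Pirb (1.13). The authors' deposited table for the lines after OxLDL called 3 higher and 3 lower. For the untreated lines, the authors' deposited table called 2 higher and 1 lower, and Cd33 missed the threshold there (0.90, adjusted p = 0.0548 from DESeq2). The share of all genes called by the authors was not counted here, so nothing is read from these counts either.

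A row named Gm49339 (ENSMUSG00000062593, chromosome 10, 51480612 to 51496613, plus strand) was looked at after its values were seen, because this gene model spans Lilr4b and Lilrb4a. Of its 1990 exon bases, 1846 overlapped exons of Lilrb4a, so reads of Lilrb4a and of the joint model cannot be told apart in that row. It had 1070, 1160 and 1500 CPM with OxLDL and 104, 140 and 139 CPM untreated in sh-PHLPP1 cells. The row in sh-Luc cells had 621, 552 and 583 CPM with OxLDL and 155, 213 and 158 CPM untreated. All 4 groups stood apart from each other.

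Gm49339 rose with OxLDL in sh-PHLPP1 (log2 fold change 3.28 ± 0.18, adjusted p = 5.84e-08, edgeR) and in sh-Luc (1.74 ± 0.17, adjusted p = 6.37e-05). The interaction was 1.55 ± 0.24 (adjusted p = 0.00101, edgeR). Between the lines after OxLDL it was higher in sh-PHLPP1 (1.09 ± 0.17, adjusted p = 0.000258, edgeR). It is not counted among the 8 genes.

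The activating members of the CD300 family, neighbours of Cd300a and Cd300lf on chromosome 11, were measured as well. Cd300ld had 425, 353 and 378 CPM with OxLDL and 65.8, 174 and 175 CPM untreated in sh-PHLPP1 cells, against 134, 111 and 123 CPM with OxLDL and 97.5, 71.2 and 90.1 CPM untreated in sh-Luc cells. Its highest libraries were those of sh-PHLPP1 with OxLDL, as for Cd300lf. Cd300ld rose with OxLDL in sh-PHLPP1 (log2 fold change 1.48 ± 0.28, adjusted p = 0.000928, edgeR) and was higher there than in sh-Luc after OxLDL (1.65 ± 0.29, adjusted p = 0.000498). Its value with OxLDL in sh-Luc (0.51 ± 0.28) was not called, and neither was the interaction (0.97 ± 0.40).

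Cd300c2 had 60.3, 62.6 and 77.7 CPM with OxLDL and 8.16, 13.8 and 15.7 CPM untreated in sh-PHLPP1 cells. Cd300c2 in sh-Luc cells had 13.8, 12.4 and 13.6 CPM with OxLDL and 5.50, 8.81 and 5.61 CPM untreated. It rose with OxLDL in sh-PHLPP1 (2.41 ± 0.24, adjusted p = 5.86e-06, edgeR) and in sh-Luc (0.99 ± 0.24, adjusted p = 0.021, edgeR). The interaction was 1.42 ± 0.33 (adjusted p = 0.0100, edgeR), or 0.92 with both libraries that stand apart left out. Between the untreated lines Cd300c2 was higher in sh-PHLPP1 (0.92 ± 0.24, adjusted p = 0.0159, edgeR). Cd300lb, another activating member, fell with OxLDL in sh-PHLPP1 (-0.35 ± 0.12, adjusted p = 0.0257, edgeR) and had -0.28 ± 0.12 in sh-Luc, not called. Of the activating relatives of Sirpa, Sirpb1a had 27 to 109 counts, Sirpb1b 2 to 11 and Sirpb1c 10 to 47, and neither Sirpb1a nor Sirpb1c was called in any comparison.

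**Figure D3:**
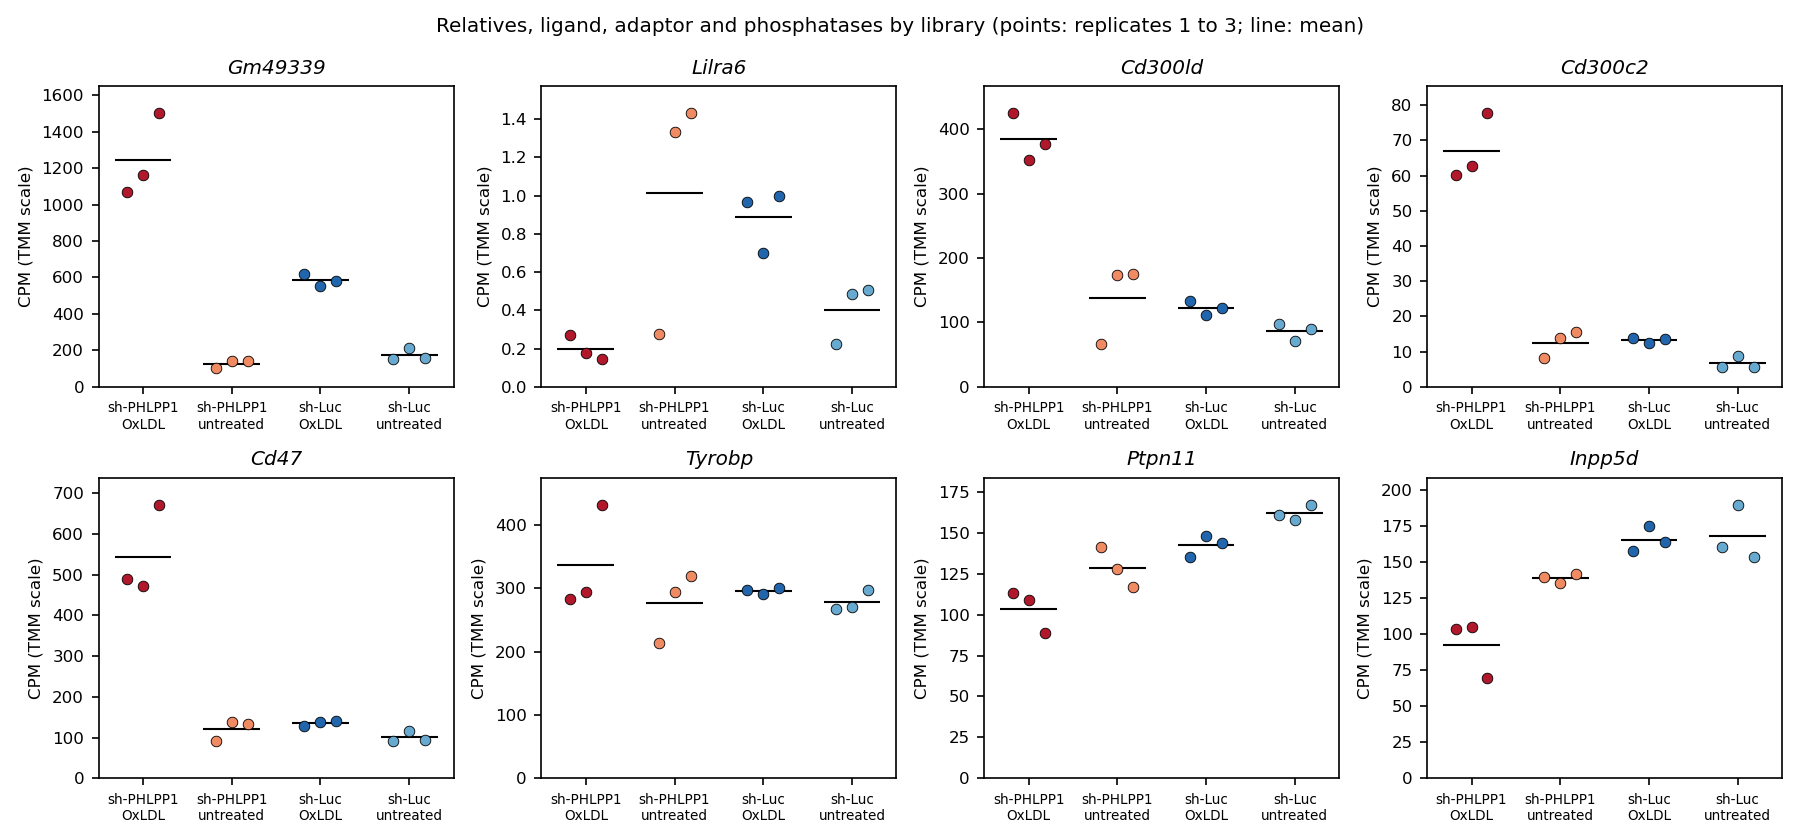
CPM (TMM scale, linear axes from 0) of the gene model over Lilrb4a (Gm49339), activating relatives (Lilra6, Cd300ld, Cd300c2), the Sirpa ligand Cd47, the adaptor gene Tyrobp and the phosphatase genes Ptpn11 and Inpp5d in the 12 libraries; points are replicates 1 to 3 and lines are group means. Gm49339, Cd300ld, Cd300c2 and Cd47 are highest in the 3 libraries of sh-PHLPP1 with OxLDL, and Inpp5d is lowest there.

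The other genes of the pathway were grouped in 5 lists by function. Every count called in these lists in the main fit of all 12 libraries stands beside that fit's shares of all genes tested. These were 54.6% for OxLDL in sh-PHLPP1, 9.47% for OxLDL in sh-Luc, 55.2% between the lines after OxLDL and 27% untreated. A list whose called share is near these is not set apart from other genes. A fit of only the 6 untreated libraries called 733 genes in all, against 3549 untreated in the main fit. Of these lists it called 0 phosphatase and adaptor genes, 2 kinases, 1 activating receptor gene and 0 ligands between the untreated lines. Without both libraries that stand apart, 8297 genes were called with OxLDL in sh-PHLPP1, 3528 in sh-Luc, 8851 between the lines after OxLDL and 6267 untreated. The main fit called 7169, 1242, 7240 and 3549 genes in the same order. Among other inhibitory receptors, 13 of 22 were tested. With OxLDL, 6 rose and 2 fell in sh-PHLPP1, where 54.6% of all genes were called, and 3 rose and 2 fell in sh-Luc, where 9.47% were (medians 0.80 and 0.33, beside -0.03 and 0.00 over all genes). Milr1, an inhibitory receptor that dampens mast cell activation, rose in sh-PHLPP1 (log2 fold change 1.36 ± 0.13, adjusted p = 6.08e-06, edgeR) and Cd200r1, the receptor for CD200, rose there too (1.20 ± 0.12, adjusted p = 8.28e-06). Cd72, a lectin-like coreceptor with an ITIM, fell in that line (-1.28 ± 0.14, adjusted p = 1.35e-05). In sh-Luc, Cd200r1 rose as well (1.31 ± 0.12, adjusted p = 4.72e-05) and Cd72 fell as well (-1.32 ± 0.14, adjusted p = 8.85e-05). With both libraries that stand apart left out, 13 members were called in sh-PHLPP1 and 10 in sh-Luc, beside 8297 and 3528 of all genes.

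Between the lines, 4 of the other inhibitory receptors were higher and 4 lower in sh-PHLPP1 after OxLDL, and 2 were higher and 2 lower untreated (medians 0.17 and 0.04, beside 0.01 and 0.03 over all genes). Fcgr2b, the inhibitory receptor for IgG, averaged 183 ± 46.0 CPM in sh-PHLPP1 cells with OxLDL and 40.6 ± 4.66 CPM in sh-Luc cells with OxLDL (2.17 ± 0.29, adjusted p = 9.56e-05, edgeR). Clec4a2, a lectin receptor with an ITIM, was lower in sh-PHLPP1 (-2.90 ± 0.47, adjusted p = 0.000314), and Milr1 higher (0.76 ± 0.13, adjusted p = 0.000510). Fcgr2b was also 3.49-fold higher (log2 interval 1.16 to 2.45, adjusted p = 0.00192) and Clec4a2 also lower (-2.99 ± 0.45, adjusted p = 0.00110) between the untreated lines. Among untreated cells, Pdcd1, which encodes PD-1, averaged 4.77 ± 0.411 CPM in sh-PHLPP1 cells and 42.2 ± 25.0 CPM in sh-Luc cells (-3.14 ± 0.34, adjusted p = 0.000107). The OxLDL responses of Milr1 differed between the lines by 1.03 ± 0.19 (adjusted p = 0.00264). Those of Cd5 differed by -3.36 ± 0.92 (adjusted p = 0.0216), at 2 to 88 counts a library. Cd5 was no longer called when replicate 3 of sh-PHLPP1 with OxLDL (-3.08) or replicate 2 of sh-Luc with OxLDL (-2.94) was left out.

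Among phosphatases and adaptors that work beside Ptpn6, all 14 were tested. With OxLDL, 4 rose and 6 fell in sh-PHLPP1, and 3 rose and 0 fell in sh-Luc (medians -0.12 and 0.00). The sh-Luc count was 1 without untreated sh-Luc replicate 1 and 7 without both libraries that stand apart. Those fits called 639 and 3528 genes in all. Csk, the kinase that restrains Src kinases, fell in sh-PHLPP1 (log2 fold change -1.22 ± 0.11, adjusted p = 2.04e-06, edgeR), as did the adaptor Sh2b3 (-1.40 ± 0.09, adjusted p = 2.31e-07). The adaptor Fyb rose there (2.83 ± 0.22, adjusted p = 7.91e-07). In sh-Luc the phosphatase Ptpre rose (0.75 ± 0.11, adjusted p = 0.00161).

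The phosphatases that share ITIM partners with Ptpn6 were measured in every library. Inpp5d had 104, 105 and 69.5 CPM with OxLDL and 140, 136 and 142 CPM untreated in sh-PHLPP1 cells, against 158, 175 and 164 CPM with OxLDL and 161, 190 and 154 CPM untreated in sh-Luc cells. It fell with OxLDL in sh-PHLPP1 (-0.59 ± 0.15, adjusted p = 0.00483, edgeR) and was lower there than in sh-Luc after OxLDL (-0.84 ± 0.15, adjusted p = 0.000547). Ptpn11 had 113, 109 and 89.0 CPM in sh-PHLPP1 cells with OxLDL and 135, 148 and 144 CPM in sh-Luc cells with OxLDL (-0.45 ± 0.11, adjusted p = 0.00473). Both genes were thus lower in each sh-PHLPP1 library than in any sh-Luc library after OxLDL. The groups of 69.2% of all genes did not overlap in that comparison. The same held untreated, as for 36.9% of all genes. Untreated Ptpn11 had 141, 128 and 117 CPM in sh-PHLPP1 cells and 161, 158 and 167 CPM in sh-Luc cells (-0.33 ± 0.11, adjusted p = 0.0433, edgeR). Untreated Inpp5d was not called (-0.27 ± 0.15). Ptpn11 also fell with OxLDL in sh-PHLPP1 (-0.31 ± 0.11, adjusted p = 0.0353, edgeR). The interaction was called for neither Inpp5d (-0.57 ± 0.21) nor Ptpn11 (-0.12 ± 0.16).

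Between the lines, 3 phosphatase and adaptor genes were higher and 7 lower in sh-PHLPP1 after OxLDL, among them Sh2b3 (-1.58 ± 0.09, adjusted p = 2.36e-07, edgeR), Csk (-0.99 ± 0.10, adjusted p = 1.76e-05) and Fyb (1.48 ± 0.21, adjusted p = 0.000123). The list medians were -0.40 after OxLDL and -0.08 untreated. Untreated, 0 were higher and 2 lower, 1 of them Sh2b3 (-0.31 ± 0.09, adjusted p = 0.0254). That untreated count was 0 without untreated sh-Luc replicate 2 or 3 or untreated sh-PHLPP1 replicate 2 or 3, and 1 without untreated sh-Luc replicate 1. Those fits called 1515 to 2511 genes in all, against 3549 in the main fit. The list count was 0 with no filter, 1 higher and 0 lower with library size alone, and 2 higher and 2 lower without both libraries that stand apart. These fits called 3561, 3616 and 6267 genes in all. The responses to OxLDL differed between lines for Sh2b3 (-1.27 ± 0.13, adjusted p = 5.67e-05), Fyb (1.84 ± 0.29, adjusted p = 0.00114) and Csk (-0.87 ± 0.15, adjusted p = 0.00173).

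Of 13 kinases and effectors of the activating arm, 12 were tested. With OxLDL, 5 rose and 2 fell in sh-PHLPP1, and 2 rose and 0 fell in sh-Luc (medians 0.23 and 0.06). Without both libraries that stand apart, 5 were called in sh-Luc, beside 3528 of all genes. Src, which can phosphorylate ITIM tyrosines, averaged 46.4 ± 8.82 CPM with OxLDL and 1.85 ± 0.317 CPM untreated in sh-PHLPP1 cells (log2 fold change 4.64 ± 0.35, adjusted p = 6.32e-07, edgeR). It averaged 22.1 ± 2.86 CPM with OxLDL and 7.58 ± 4.19 CPM untreated in sh-Luc cells, and the responses differed by 3.10 ± 0.44 (adjusted p = 0.000596).

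Syk, the kinase recruited by activating adaptors, rose with OxLDL in sh-PHLPP1 (1.67 ± 0.15, adjusted p = 2.57e-06, edgeR) and in sh-Luc (0.92 ± 0.14, adjusted p = 0.00182). The responses of Syk differed by 0.75 ± 0.20 (adjusted p = 0.0206). Leaving out replicate 2 of sh-PHLPP1 with OxLDL (0.69) or replicate 3 of sh-Luc with OxLDL (0.73) ended that call for Syk, as did scaling by library size alone (0.37). Btk, another kinase of this arm, fell in sh-PHLPP1 (-0.84 ± 0.09, adjusted p = 1.61e-05), and its responses differed by -0.53 ± 0.13 (adjusted p = 0.0133).

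Between the lines, 5 of these kinases and effectors were higher and 4 lower in sh-PHLPP1 after OxLDL, beside 27.6% of all genes in each direction (median 0.25, and 0.01 untreated). Vav1, an exchange factor, was higher (0.93 ± 0.12, adjusted p = 7.49e-05, edgeR) and Btk lower (-0.57 ± 0.09, adjusted p = 0.000321). Untreated, 3 were higher and 3 lower, beside 14.9% and 12.2% of all genes, and Syk was lower (-1.44 ± 0.15, adjusted p = 6.30e-05). Without untreated sh-PHLPP1 replicate 2 the untreated count was 3, in a fit that called 1515 genes in all, against 3549 in the main fit.

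Among ITAM adaptors and activating receptors, 25 of 31 listed names had a row and 18 were tested. Tyrobp, the shared adaptor, had 284, 294 and 432 CPM with OxLDL and 214, 295 and 320 CPM untreated in sh-PHLPP1 cells. Tyrobp in sh-Luc cells had 297, 291 and 300 CPM with OxLDL and 267, 270 and 297 CPM untreated. The groups overlapped and Tyrobp was not called in any comparison.

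With OxLDL, 7 of these 18 genes rose and 3 fell in sh-PHLPP1, and 4 rose and 0 fell in sh-Luc (medians 0.17 and 0.54). The sh-Luc count was 2 without untreated sh-Luc replicate 1 or 3 or any of the sh-Luc OxLDL libraries, and 11 without both libraries that stand apart. The fits with 2 called had 564 to 698 genes called in all, and the fit without both libraries had 3528. Clec4e (Mincle), a lectin receptor for glycolipids, averaged 1350 ± 95.5 CPM with OxLDL and 95.9 ± 17.3 CPM untreated in sh-PHLPP1 cells (3.82 ± 0.27, adjusted p = 3.54e-07, edgeR). Its relative Clec4d rose in sh-PHLPP1 (3.08 ± 0.18, adjusted p = 9.54e-08) and in sh-Luc (1.48 ± 0.17, adjusted p = 0.000198). The responses differed for Clec4e (2.89 ± 0.35, adjusted p = 0.000187), Clec4d (1.60 ± 0.24, adjusted p = 0.000805) and Trem2, a lipid-sensing receptor (-1.48 ± 0.31, adjusted p = 0.00610).

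Between the lines, 6 of these genes were higher and 3 lower in sh-PHLPP1 after OxLDL (median -0.12, and 0.07 untreated). Cd300c2 (2.33 ± 0.24, adjusted p = 1.22e-05, edgeR) and Clec4e (2.19 ± 0.25, adjusted p = 2.89e-05) were higher, and Trem2 lower (-1.72 ± 0.22, adjusted p = 7.23e-05). Untreated, 3 were higher and 3 lower, and Clec7a (Dectin-1) was higher (1.36 ± 0.15, adjusted p = 0.000129). The untreated count was 3 without untreated sh-PHLPP1 replicate 2 or 3, in fits that called 1515 and 1566 genes in all, against 3549 in the main fit.

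Ligands of these receptors were tested for 12 of 19 names. With OxLDL, 9 rose and 1 fell in sh-PHLPP1, with a median of 1.08 beside -0.03 over all genes, and 0 were called in sh-Luc (median -0.01). In sh-Luc 1 ligand had an unadjusted p under 0.05 and DESeq2 called 0, while edgeR called 1 without untreated sh-Luc replicate 2 and 3 without both libraries that stand apart. Those edgeR fits called 1342 and 3528 genes in all. The sh-PHLPP1 count of 10 was 6 without untreated replicate 2 or OxLDL replicate 2 or 3, and 5 under scaling by library size alone, with 3 higher and 2 lower. The fits with 6 ligands called had 6151 to 6647 genes called in all, and library size alone had 7953, against 7169 in the main fit.

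Cd47, the ligand of Sirpa, had 488, 472 and 671 CPM with OxLDL and 90.6, 138 and 134 CPM untreated in sh-PHLPP1 cells. Cd47 in sh-Luc cells had 129, 139 and 140 CPM with OxLDL and 91.7, 117 and 94.9 CPM untreated. The treated sh-PHLPP1 libraries lay above all others. Cd47 rose with OxLDL in sh-PHLPP1 (log2 fold change 2.17 ± 0.18, adjusted p = 1.88e-06, edgeR), was higher there than in sh-Luc after OxLDL (2.00 ± 0.18, adjusted p = 5.96e-06), and its responses differed by 1.74 ± 0.25 (adjusted p = 0.000673). Sirpa itself was not called in these comparisons.

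The MHC class I gene H2-D1, whose products Pirb binds, rose with OxLDL in sh-PHLPP1 (1.09 ± 0.18, adjusted p = 0.000273, edgeR), and its responses differed by 1.01 ± 0.25 (adjusted p = 0.0128). B2m, the class I light chain, was higher in sh-PHLPP1 after OxLDL (1.25 ± 0.21, adjusted p = 0.000346, edgeR). Pirb itself fell with OxLDL in sh-PHLPP1 (-2.26 ± 0.32) and was higher there than in sh-Luc untreated (1.68 ± 0.30). Colec12, a scavenger receptor with a collagen-like stretch, rose with OxLDL in sh-PHLPP1 (1.14 ± 0.21, adjusted p = 0.000743, edgeR), and its responses differed by 1.12 ± 0.30 (adjusted p = 0.0185). Between the untreated lines Colec12 was lower in sh-PHLPP1 (-1.04 ± 0.21, adjusted p = 0.0055, edgeR).

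Angptl2, a secreted ligand of Pirb in mouse, was lower in sh-PHLPP1 after OxLDL, at 19.1 ± 1.63 CPM in sh-PHLPP1 cells and 179 ± 7.41 CPM in sh-Luc cells (-3.23 ± 0.44, adjusted p = 9.66e-05, edgeR). Untreated it was lower as well (-2.14 ± 0.41, adjusted p = 0.00421), and that value was -1.25 without untreated sh-Luc replicate 2. A fit of only the 6 untreated libraries did not call it (-2.13, adjusted p = 0.0636). In all, 5 ligands were higher and 2 lower between the lines after OxLDL, and 0 were higher and 3 lower untreated (medians 0.68 and -0.44). The untreated count was 3 higher and 4 lower without untreated sh-PHLPP1 replicate 1 or without both libraries that stand apart, and 0 in a fit of only the 6 untreated libraries. Those fits called 6372, 6267 and 733 genes in all, against 3549 in the main fit.

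**Figure D4:**
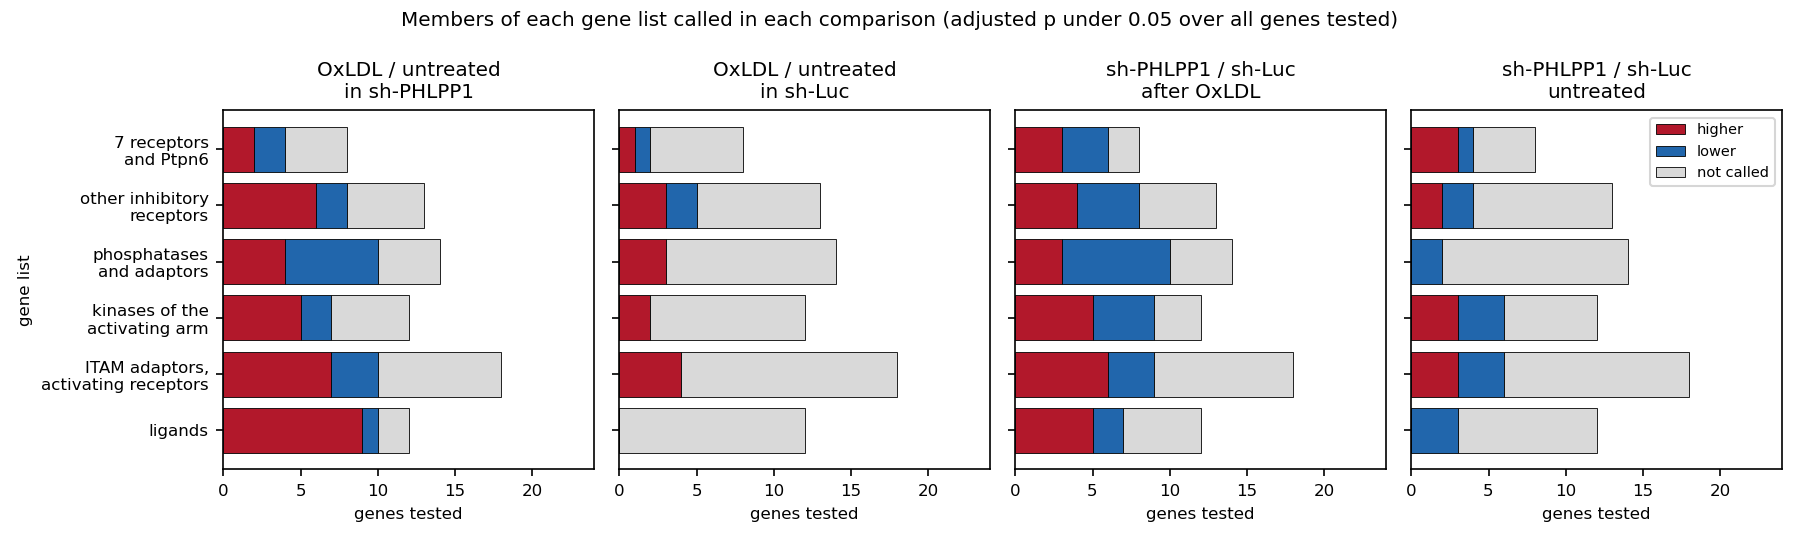
Number of genes tested (x axis) in each list that were called higher, called lower or not called in the 4 pairwise comparisons, at an adjusted p under 0.05 over all genes. Among the ligands, 9 were higher with OxLDL in sh-PHLPP1 and 0 were called in sh-Luc, while 54.6% and 9.47% of all genes were called in those comparisons.

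The genes with patterns most like those of 3 members were found by Pearson correlation of log2 CPM over the 12 libraries. Genes whose mean log2 CPM was 2 or more were ranked, 9511 for Pirb and 9510 for Lair1 and Ptpn6. Pirb was closest to Klhl22 (0.954), Myo1g (0.942), Mvb12b (0.941), Sptbn1 (0.939) and Exoc6 (0.933). Lair1 was closest to Plxna4 (0.996), Tubb6 (0.991), Tuba4a (0.987), Dipk2a (0.985) and Tmem163 (0.984). Among the genes closest to Ptpn6 were Acaa2 (0.963), Iqsec2 (0.957), Ptpn18 (0.955) and Fam32a (0.954). Since the libraries fall into groups, such values mainly order group means, and they are descriptions.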

How the data were processed

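Bulk RNA was sequenced from 4 groups of 3 libraries of RAW 264.7 cells. The authors deposited raw read counts per Ensembl gene (39179 genes, all 12 columns used), made, per the submitters' processing notes, on build GRCm38 with tools that include HTSeq, Trimmomatic, FastQC and DESeq2. Aligner, strand setting and annotation release: not given in the sources used here. In addition, the authors' deposited tables for 3 comparisons hold log2 fold changes and adjusted p-values, which are quoted for the members. The counts were then tested with edgeR 4.0.16 in R 4.3.3: filterByExpr, TMM factors, and 2-sided quasi-likelihood tests on 4 group means over the 12 libraries with no block. Benjamini-Hochberg adjustment ran over 13121 genes, with calls at an adjusted p under 0.05. SE was taken as |log2 fold change| / sqrt(F), and 95% intervals rest on it. The procedure was tested on simulated data. DESeq2 1.42.0 served as an alternative, as did other scalings, no filter, smaller fits, a replicate block and left-out libraries. Members and lists were chosen with earlier results of these data known. Named genes were all members, the listed partners, at most 3 called genes a list and comparison with the smallest p, and the 5 genes most like 3 members. For untreated lines and for OxLDL in sh-Luc only the first gene of each list is named, apart from Cd72, Fcgr2b, Clec4a2 and Colec12. This shortening was made after the values were seen. Some genes that this rule names are not reported here. Positions and exon lengths came from GENCODE M21. Without strand information, antisense reads cannot be told apart from a gene's own.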

Additional observations from a re-analysis of the deposited data

Results flagged for a closer look

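These results were picked out because the OxLDL response differed between the lines by a test of the difference itself (the edgeR interaction, sh-PHLPP1 minus sh-Luc, log2), which 24.6% of all genes tested passed. Among the receptors, the difference was -3.39 for Pirb, -0.95 for Cd300a and 0.77 for Clec12a. It was -3.44 for Lilra6, 1.42 for Cd300c2 and 1.55 for the gene model Gm49339. For Phlpp1, the targeted gene, it was -0.77. Among other inhibitory receptors it was 1.03 for Milr1 and -3.36 for Cd5. Phosphatases and adaptors gave -1.27 for Sh2b3, 1.84 for Fyb and -0.87 for Csk. Kinases gave 3.10 for Src, -0.53 for Btk and 0.75 for Syk. Activating receptors gave 2.89 for Clec4e, 1.60 for Clec4d and -1.48 for Trem2. Ligands gave 1.74 for Cd47, 1.01 for H2-D1 and 1.12 for Colec12. The causes were not tested.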

How the results depend on the processing

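Of the 8 genes, the number called with each library left out in turn ran from 1 to 3 for OxLDL in sh-Luc, 4 to 5 for OxLDL in sh-PHLPP1, 3 to 7 between untreated lines, 6 to 6 between lines after OxLDL and 2 to 4 in the interaction. Of all genes, these fits called, in the same order, 564 to 1342, 6151 to 7535, 1515 to 6372, 6114 to 6670 and 2114 to 4496. Without both libraries that stand apart, the counts were 6 for OxLDL in sh-Luc, 7 between untreated lines and 6 in the interaction. Library size alone gave 7 for OxLDL in sh-PHLPP1, where it called 7953 of all genes, against 7169 with TMM factors. Library size alone moved the median of all genes to -0.46 for OxLDL in sh-PHLPP1, -0.05 in sh-Luc, -0.25 between lines after OxLDL, 0.15 untreated and -0.43 in the interaction. Directions that turned were all of values not called. For Sirpa these were OxLDL in sh-PHLPP1 (-0.01), at 0.00 with DESeq2 size factors or the DESeq2 test and 0.02 without untreated replicate 3 or OxLDL replicate 3 of that line. They also were Sirpa between lines after OxLDL (0.03), at -0.23 with library size alone, -0.04 with no filter, -0.03 without sh-Luc OxLDL replicate 1 and 0.00 without sh-PHLPP1 OxLDL replicate 2 (range -0.03 to 0.06). Lair1 turned to 0.20 for OxLDL in sh-PHLPP1 without untreated replicate 1 of that line (range over left-out libraries -0.34 to 0.20) or without both libraries, Cd300a to -0.05 or 0.00 between untreated lines (range -0.05 to 0.43), and Cd33 to -0.06 in the interaction with library size alone. The cause was not tested. Genes called with OxLDL in sh-Luc numbered 1242, against 564 with sh-Luc OxLDL replicate 2 left out, 3528 without both libraries, 1948 with the DESeq2 test and 2944 with only the 6 libraries compared. Between untreated lines they numbered 3549, against 733 with only the 6 libraries compared, 1515 without sh-PHLPP1 untreated replicate 2, 6372 without its replicate 1 and 6267 without both libraries. In the interaction they numbered 3231, against 5319 without both libraries and 2114 without sh-Luc OxLDL replicate 3.

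Deviations of same-numbered libraries from their group means correlated at -0.28 to 0.28, so the numbers (culture passages) were not taken to pair libraries. With replicate number as a block, 2 of the 8 genes were called for OxLDL in sh-Luc, 4 in sh-PHLPP1, 4 between untreated lines, 6 after OxLDL and 3 in the interaction, the counts of the fit with no block. The block left 1 of the 2 phosphatase and adaptor genes called between untreated lines. Of all genes, the fit with the block called 1115, 6984, 3282, 7051 and 2965 in the same order of comparisons. Depth limits the genes with few counts, among them Pirb, Lair1, Cd33, Lilra6 and Cd5.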
